A study of Mus musculus with 6 samples.

Results

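Interferon-stimulated genes of fetal mouse lung were examined for their baseline level on each array and for a difference between Carm1 knockout and wild type. The set was a list of 9 genes, namely Rsad2, Usp18, Ifit1, Ifit2, Ifit3, Isg15, Irf7, Oasl2 and Ifi44. Members were the probe sets (groups of short oligonucleotides against the 3' part of a transcript, read out as 1 signal) that the platform annotation assigns to a listed gene and to no other. Of the 45101 probe sets in the table, 9 met this rule, and they stood for 7 genes, with 3 probe sets for Rsad2 and 1 for each of the others. All 9 lay above the limit for testing, a mean over the 6 arrays above the 40th percentile, which is a signal of 59.7. No probe set of the annotation used here was matched to Ifi44. The probe set annotated to Isg15 was shared with the pseudogene Gm9706 and was counted for neither.

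Total RNA came from whole lung of 3 wild-type and 3 Carm1 knockout samples, with 1 array each. The study's design text places both genotypes at embryonic day 18.5, whereas the wild-type sample labels call the tissue neonatal. Carm1 is a transcriptional coactivator that methylates arginines of histones and other proteins. The labels used here give no knockout allele, strain, sex, litter or number of pooled fetuses. They do not say that samples came from separate animals, so every p-value measures the spread between these samples only, which may be partly technical. Signals were made with MAS5 and are on a linear scale, and the number of arrays limits their precision. In whole tissue, fewer cells of a type and less RNA per cell cannot be told apart.

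Interferons are secreted proteins that cells release on sensing foreign nucleic acid. Type I interferons bind the receptor made by Ifnar1 and Ifnar2, and the kinases Jak1 and Tyk2 then activate a transcription factor complex that includes Stat2 and Irf9. This complex binds the interferon-stimulated response element in promoters and switches on a shared set of antiviral genes. A low level of this signalling is present in healthy tissue without infection and sets the baseline of these genes.

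Median signals of the arrays ran from 106.2 to 121.5, and array pairs correlated between 0.937 and 0.969. Carm1 itself was lower on all 3 knockout arrays, at 54.0% of the wild-type level (log2 difference −0.89, SE 0.16). Its adjusted p in the limma fit was 0.105, and an exact permutation test (two-sided) gave 0.1, which is the lower limit for this number of arrays. Whether its probe set lies inside the deletion is not known here. Bacterial control RNA was present on wild type replicates 1 and 3 and on no other array. By Xist and the Y-linked Eif2s3y the males were wild type replicate 3 and knockout replicate 2, and the remaining 4 samples were female. Markers of lung were present, with 8 of 8 epithelial and 6 of 6 endothelial markers above the limit for testing, among them Sftpc, of alveolar type II cells, at 45812 to 57628 over the 6 arrays and Pecam1 at 1942 to 3768. The epithelial markers did not all behave alike: Aqp5, a water channel of alveolar type I cells, read 3383, 2173 and 1767 in wild type and 889, 894 and 455 in knockout (log2 −1.72, adjusted p = 0.0934). Ager, also of type I cells, had a log2 difference of −0.55 (adjusted p = 0.262). In both genes all knockouts lay below all wild types, beside 9.36% of all tested probe sets. Of the 8 epithelial markers 5 were lower and 3 higher in knockout. Epcam, another of them, had a log2 difference of 0.32 (adjusted p = 0.293). Its knockouts all lay above all wild types, beside 10.7% of all tested probe sets.

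The interferon-stimulated genes were lower in the knockout mean at 6 of 7 genes, beside 47.3% of all tested probe sets. The 3 knockout arrays did not behave alike. Knockout replicates 1 and 3 lay below every wild-type array at 5 of 7 genes (Rsad2, Usp18, Ifit1, Irf7 and Oasl2). At Rsad2 knockout replicate 2 lay below them as well, as at 9.36% of all tested probe sets. At the other 4 it did not, a pattern found at 6.27% of all tested probe sets. Knockout replicate 2 stood within or above the wild-type range at 6 of 7 genes, Rsad2 being the exception. The share of all tested probe sets with this position was not counted, so nothing is read from it. The median log2 difference of the 7 genes, knockout minus wild type, was −0.78, against 0.019 over all 27022 tested probe sets. It was −0.51 without knockout replicate 1 and −1.19 without knockout replicate 2. None of the 7 genes passed an adjusted p of 0.05 in the limma fit over all probe sets, where 0.0259% passed in the lower and 0.0037% in the higher direction. At an unadjusted p under 0.05, 3 of 7 were lower (Rsad2, Usp18 and Irf7) and 0 were higher, beside 6.31% lower and 7.32% higher over all tested probe sets. The plot of signals by array shows each value.

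**Figure D1:**
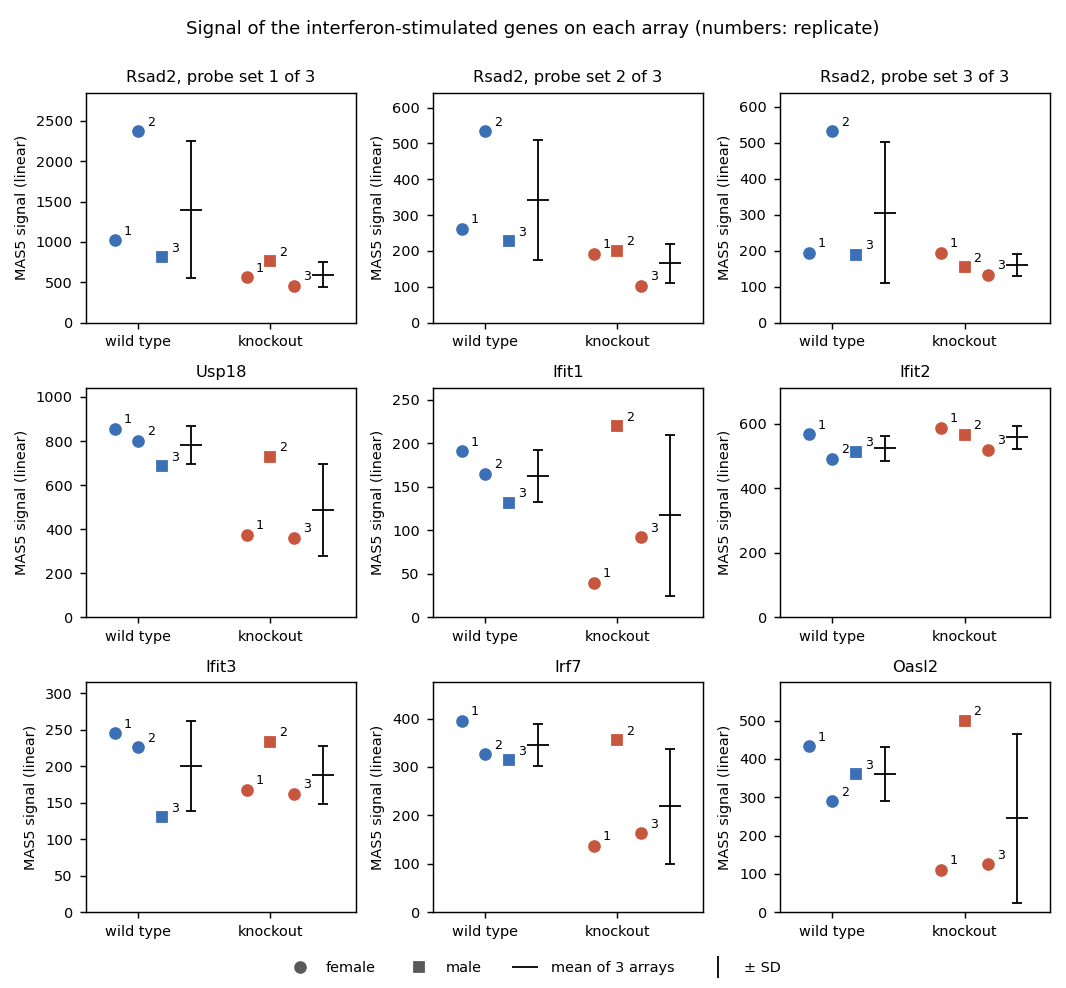
Signal (MAS5, linear scale from 0) of the 9 member probe sets on the 6 arrays, wild type in blue and knockout in red, with circles for female and squares for male samples and the replicate number beside each point; dashes and bars give the mean ± SD of 3 arrays. Knockout replicates 1 and 3 lie below all wild-type arrays for Usp18, Ifit1, Irf7 and Oasl2 while knockout replicate 2 does not, and the 3 Rsad2 probe sets all peak on wild type replicate 2.

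Irf7 encodes the transcription factor that amplifies the response by inducing interferon alpha genes. Its signal was 395, 326 and 314 on wild type replicates 1 to 3 and 138, 355 and 163 on knockout replicates 1 to 3. Knockout replicates 1 and 3 were thus clearly below the wild types, by 2.49-fold and 2.10-fold against the wild-type geometric mean, and knockout replicate 2 lay among the wild types. The wild-type mean was 345 ± 44.0 and the knockout mean 219 ± 119 (SD, n = 3 each), with a log2 difference of −0.78 (SE 0.33, adjusted p = 0.351 in limma). It was −0.51 without knockout replicate 1 and −1.19 without knockout replicate 2.

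Usp18 encodes the protease that removes the ubiquitin-like modifier Isg15 from proteins and that dampens signalling at the type I receptor. Its signal was 856, 802 and 687 in wild type and 374.5, 729 and 362 in knockout. As for Irf7, the groups overlapped only through knockout replicate 2. Knockout replicates 1 and 3 were 2.08-fold and 2.15-fold below the wild-type geometric mean. The log2 difference was −0.75 (SE 0.26, 95% interval from −1.33 to −0.17), with an unadjusted p of 0.0170 and an adjusted p of 0.268. The probe set annotated to both Isg15 and Gm9706 read 415, 390 and 288 in wild type and 175, 424 and 322 in knockout. Only knockout replicate 1 lay below all wild types there, and knockout replicate 2 was the highest array.

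Oasl2 encodes a protein of the oligoadenylate synthetase family, whose enzymes respond to double-stranded RNA. Its signal was 432, 290 and 360 in wild type and 110.4, 499 and 126 in knockout. Knockout replicate 2 was the highest of the 6 arrays and exceeded knockout replicates 1 and 3 by 4.52-fold and 3.97-fold. The SD of the knockouts, 220.3 around a mean of 245, was wider than the genotype difference (log2 −0.90, SE 0.51, adjusted p = 0.478). The log2 difference was −0.51 without knockout replicate 1 and −1.60 without knockout replicate 2.

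The Ifit proteins bind RNA that lacks the host's own cap marks and block its translation, and Ifit2, Ifit3 and Ifit1 lie in that order in 1 cluster on chromosome 19. Ifit1 read 191, 165 and 132 in wild type and 39.98, 220 and 91.9 in knockout, so it had the pattern of Oasl2, with knockout replicate 2 above and the other knockouts below all wild types. Its value on knockout replicate 1 was under the signal of 59.7 used as the limit for testing, where a fold is uncertain. The log2 difference of Ifit1 was −0.79 (SE 0.54, adjusted p = 0.566), and it was −0.18 without knockout replicate 1 and −1.41 without knockout replicate 2.

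Ifit3 read 245, 226 and 130 in wild type and 168, 234 and 162 in knockout. The groups overlapped fully, with the lowest array a wild type, and the log2 difference was −0.06 (95% interval from −0.72 to 0.59, adjusted p = 0.950). Its direction turned on leaving out replicate 1 or 2 of the wild type or replicate 1 or 3 of the knockout, where it ran up to 0.11.

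Ifit2 read 566, 491 and 513 in wild type and 587, 566 and 518 in knockout. It had the narrowest interval of the members, with a log2 difference of 0.09 (95% interval from −0.20 to 0.39, adjusted p = 0.804), and the only one whose knockout mean was the higher. The 6 values lay close together, with a knockout array highest and a wild-type array lowest.

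Rsad2 encodes viperin, an enzyme that makes a chain-terminating nucleotide from CTP. At the probe set of highest mean its signal was 1021, 2371 and 812 in wild type and 566, 760 and 458 in knockout. All 3 knockouts lay below all 3 wild types, and wild type replicate 2 stood 2.60-fold above the other wild types. The log2 difference of −1.11 was the largest of the 7 genes (SE 0.36, unadjusted p = 0.0138, adjusted p = 0.252). It was −0.65 without wild type replicate 2.

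The other probe sets of Rsad2 had the same high array. The second read 263, 534 and 228 in wild type and 193, 201 and 103 in knockout, and the third 195, 532 and 189 in wild type and 195, 154 and 134 in knockout. Wild type replicate 2 was 2.18-fold and 2.77-fold above the other wild types there. At the second probe set the groups did not overlap, and at the third knockout replicate 1 lay within the wild-type range. Of the 7 genes, 1 (Rsad2) had all knockout arrays below all wild-type arrays and 0 had all above, beside 9.36% and 10.7% of all tested probe sets. None of the other members peaked on wild type replicate 2, and neither did Cmpk2, a nucleotide kinase gene next to Rsad2 on chromosome 12, which read 413, 550 and 569 in wild type and 343, 592 and 436 in knockout.

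The promoters of the members were searched on both strands for the core of the interferon-stimulated response element, spelled GAAA, then NN, then GAAA. Each promoter was the 300 bases from 250 before to 50 after a transcription start of the promoter table (RefSeq, GRCm38.p6). Of the 9 listed genes 8 had a promoter in the table, Usp18 being the one without, and 4 of these 8 held the motif (Rsad2, Ifit1, Ifit3 and Isg15). Irf7, Oasl2, Ifit2 and Ifi44 had no match in this window. Among the other type I interferon-stimulated genes 19 of the 41 with a promoter (46.3%) held it, and of all 27025 genes with a promoter 3.99% did, or 3.44% of 32851 promoters of the same length. The stretches around the matches are shown for the 4 members that held the motif. They are written 5′ to 3′ along the gene's strand, with the matches in capitals:
Ifit1, chr19:34640755-34640843, plus strand: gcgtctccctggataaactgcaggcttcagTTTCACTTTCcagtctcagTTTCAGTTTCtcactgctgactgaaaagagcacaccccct
Ifit3, chr19:34583343-34583446, plus strand: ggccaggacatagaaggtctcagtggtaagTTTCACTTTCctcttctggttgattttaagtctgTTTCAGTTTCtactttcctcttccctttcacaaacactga
Rsad2, chr12:26456533-26456602, minus strand: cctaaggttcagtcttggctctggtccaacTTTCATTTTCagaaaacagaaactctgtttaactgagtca
Isg15, chr4:156200845-156200926, minus strand: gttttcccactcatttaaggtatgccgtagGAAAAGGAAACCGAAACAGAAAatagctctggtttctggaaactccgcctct

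Ifit1 and Ifit3 each held 2 matches with identical letters, on the strand opposite to the gene. Those of Ifit1 began 104 and 85 bases and those of Ifit3 156 and 122 bases before the transcription start of the promoter table. For Ifit1 this start is also where the annotated gene begins, at chr19:34640889. For Ifit3 it is chr19:34583529, inside the annotated gene, which begins at 34583119. On knockout replicate 1 Ifit1 was 4.02-fold and Ifit3 1.15-fold below the wild-type geometric mean. That Ifit1 value was under the limit for testing, so its fold is uncertain. On knockout replicate 3 the folds were 1.75 for Ifit1 and 1.19 for Ifit3. Isg15 held 3 matches that overlap each other and read along the gene's strand, and Rsad2 held 1 match, which began 120 bases before its start. In Irf7 and Oasl2, which had no match in the window, knockout replicates 1 and 3 lay below all wild types, as they did in Ifit1. A match is a description of letters and not of binding, and its part in the array values was not tested.

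The baseline level was summarised for each array as the mean over the 7 genes of the log2 signal, each gene centred on its own mean over the 6 arrays. It was 0.46, 0.42 and 0.05 on wild type replicates 1 to 3 and −0.73, 0.39 and −0.58 on knockout replicates 1 to 3. Knockout replicates 1 and 3 were the lowest arrays, and knockout replicate 2 lay with wild type replicates 1 and 2, above wild type replicate 3. The SD among knockouts was 0.61 and among wild types 0.22. Without Rsad2 the values were 0.49, 0.24, 0.07, −0.75, 0.48 and −0.53 in the same order, and knockout replicates 1 and 3 again were lowest.

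**Figure D2:**
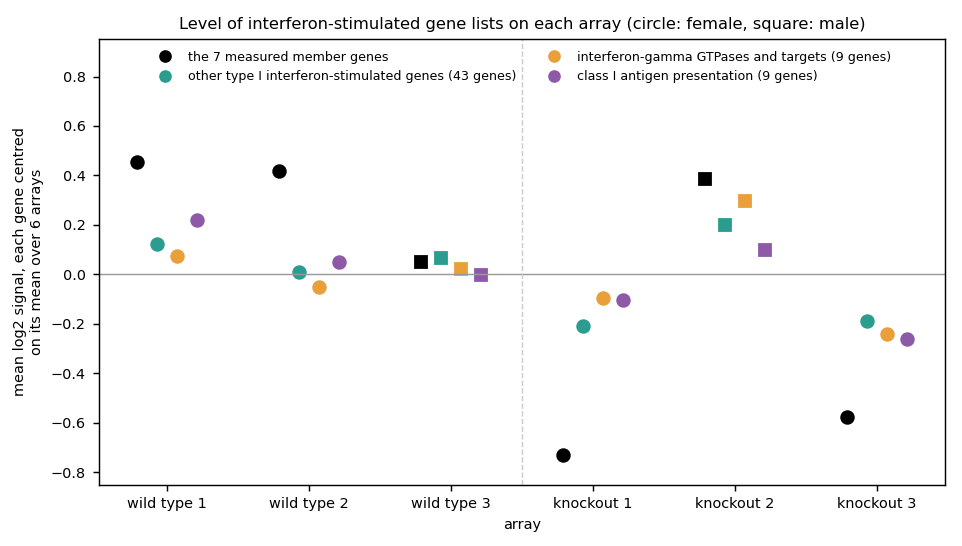
Mean centred log2 signal of 4 gene lists on each array (circles female, squares male), with 0 as each gene's mean over the 6 arrays. For the 7 measured members (black) knockout replicates 1 and 3 lie at −0.73 and −0.58 and knockout replicate 2 at 0.39, and the other 3 lists have their highest knockout value on knockout replicate 2 as well.

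Sex and genotype could be compared in part, since the males were 1 array per genotype and the females 2. This split was made after the values were seen. Among females, both knockouts lay below both wild types at 6 of 7 genes, Ifit2 being the exception, beside 19.3% of all tested probe sets. The female log2 differences ran from −1.61 for Rsad2 through −1.26 for Irf7 to 0.07 for Ifit2, with a median of −1.26. Between the males the knockout was above the wild type at 6 of 7 genes, Rsad2 being the exception, beside 50.8% of all tested probe sets, and the median difference was 0.18. The interaction of genotype with sex, tested with limma over all probe sets, passed the adjusted threshold at 0 of 7 genes and in 0% of all probe sets, with an adjusted p of 1.00 for each member. At an unadjusted p under 0.05 it held 5 of 7 genes (Usp18, Ifit1, Ifit3, Irf7 and Oasl2) beside 2.1% of all probe sets. Knockout replicate 2 is the only male knockout and had been seen to stand apart before this split was made, so these counts restate that observation and nothing is read from them. With 1 male per genotype, sex and the single sample cannot be told apart.

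**Figure D3:**
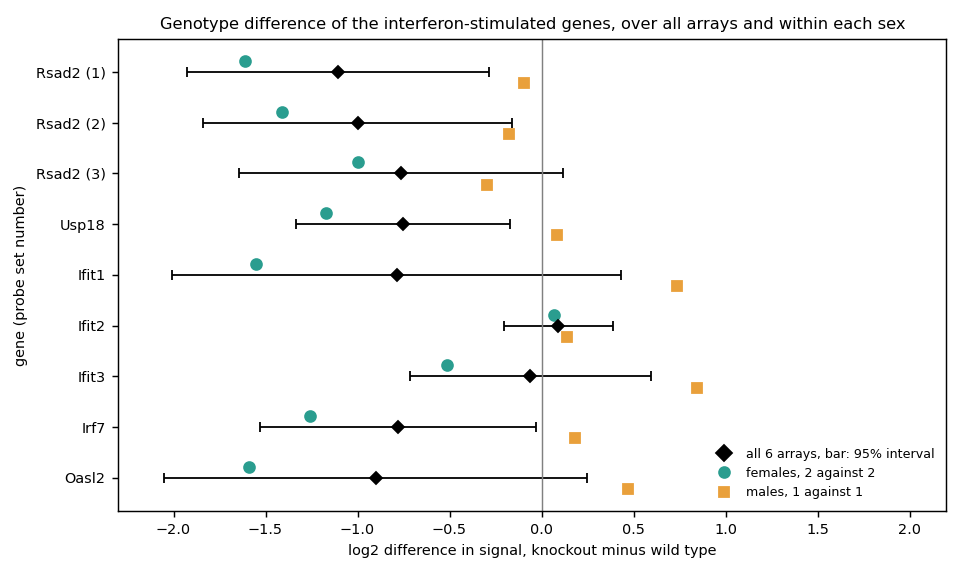
Log2 difference in signal, knockout minus wild type, for the 9 member probe sets: diamonds with 95% intervals from the limma fit over all 6 arrays, circles for females (2 against 2) and squares for males (1 against 1). Female differences lie at or below −0.51 for all member probe sets but Ifit2, and male differences are positive for all members but Rsad2.

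Bacterial control RNA moved with genotype in part, being on 2 wild-type arrays only. Against wild type replicate 2 alone, which lacked it, the knockout mean was lower by 2.03 at the leading Rsad2 probe set, 0.79 at Usp18, 0.82 at Ifit1, 0.71 at Irf7, 0.61 at Oasl2 and 0.29 at Ifit3 on the log2 scale. It was higher by 0.18 at Ifit2. The median of these differences was −0.71. Each gene kept the direction it had over all arrays, but this rests on wild type replicate 2 alone. That array was also the high one for Rsad2, at 2.60-fold above the other wild types. With a single wild-type array lacking this RNA, the RNA and the sample cannot be told apart.

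The genes upstream of the members in the pathway had 0 calls past the adjusted threshold. Of 19 interferon ligand genes, 10 had a probe set of their own and 9 of these were below the limit for testing on average, among them Ifnb1, the first type I interferon made on infection, at 25.0 to 69.6 over the 6 arrays. The tested ligand gene was Ifnz, at 81.5, 111.3 and 117 in wild type and 145, 164 and 154 in knockout (adjusted p = 0.3501). All 6 receptor genes were tested and all 6 had the lower mean in knockout, but 0 passed. Ifnar2, a chain of the type I receptor, hardly differed (log2 −0.03), and Ifnar1, the other chain, differed by −0.12. The smallest p among receptors belonged to Ifngr1, of the receptor for interferon gamma, at 1228, 1050 and 1205 in wild type and 925, 929 and 885 in knockout (adjusted p = 0.243). Its arrays did not overlap, nor did those of Il10rb, a chain shared by the interferon lambda and interleukin-10 receptors (adjusted p = 0.273). These were 2 of the 6 receptor genes, beside 9.36% of all tested probe sets with all knockouts below all wild types.

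Among 5 tested genes of receptor signalling 0 passed, and 2 were lower at an unadjusted p under 0.05, beside 6.31% of all tested probe sets. Stat2, a transcription factor of the complex named above, read 299, 267 and 314 in wild type and 183, 209 and 201 in knockout. All knockouts were below all wild types at 1 of the 5 genes, Stat2, beside 9.36% of all tested probe sets. Stat2 had no rise on knockout replicate 2 of the kind seen at the members (log2 −0.57, SE 0.17, adjusted p = 0.228). Irf9, the DNA-binding partner in that complex, read 1072, 894 and 924 in wild type and 541, 921 and 599 in knockout (adjusted p = 0.299), which is the array pattern of Irf7.

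Sensors of foreign nucleic acid and their adaptors divided evenly, with 6 of 11 lower and 5 higher and 0 past the adjusted threshold. Those of smallest p were Tlr3, a sensor of double-stranded RNA, at 224, 178 and 200 in wild type against 271, 296 and 282 in knockout, and Mavs, the mitochondrial adaptor of RNA sensors, at 764, 1081 and 667 against 633, 572 and 583 (adjusted p = 0.281 and 0.314). Of 5 tested other interferon regulatory factors 3 were lower. Irf8, a factor of myeloid cells, read 780, 853 and 674 in wild type and 623, 578 and 514 in knockout (adjusted p = 0.253). Irf2, a relative that competes with activating factors, read 666, 675 and 530 in wild type and 409, 578 and 396 in knockout (adjusted p = 0.335). Of 7 tested feedback inhibitors 5 were lower, 2 higher and 0 past the threshold, led by Trim24 (log2 0.46, adjusted p = 0.237) and Irf2bp2 (log2 −0.26, adjusted p = 0.340).

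In a list of other type I interferon-stimulated genes, too, knockout replicates 1 and 3 had the lowest mean level. Of 54 genes listed, 50 had a probe set of their own and 43 were tested. The lower mean was in knockout at 30 of 43, beside 47.3% of all tested probe sets, with a median log2 difference of −0.15. That median was −0.06 without knockout replicate 1 or without knockout replicate 3, and −0.26 without knockout replicate 2. In the limma fit 0 passed the adjusted threshold, and at an unadjusted p under 0.05 there were 6 lower (13.95%) and 1 higher, beside 6.31% and 7.32% of all tested probe sets. Per array the list mean was 0.12, 0.01 and 0.06 in wild type and −0.21, 0.20 and −0.19 in knockout, so knockout replicate 2 was the highest array and the other knockouts the lowest.

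Knockout replicate 2 was the highest of the 3 knockout arrays at 33 of these 43 genes (76.7%) and at 6 of the 7 members, beside 37.2% of all tested probe sets. Knockout replicates 1 and 3 below all wild types with replicate 2 not below was found at 4 of 7 members and at 12 of the 43 genes (27.9%), beside 6.27% of all tested probe sets. This pattern was chosen for counting after the values were seen. Rtp4, a chaperone gene induced by interferon, read 1445, 1776 and 1714 in wild type and 798, 2084 and 1002 in knockout. Ifitm3, which blocks virus entry at membranes, read 13525, 12261 and 11648 in wild type and 7142, 11959 and 8347 in knockout (adjusted p = 0.288). Trim30a, an interferon-induced ubiquitin ligase, read 333, 443 and 327 in wild type and 237, 469 and 201 in knockout.

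**Figure D4:**
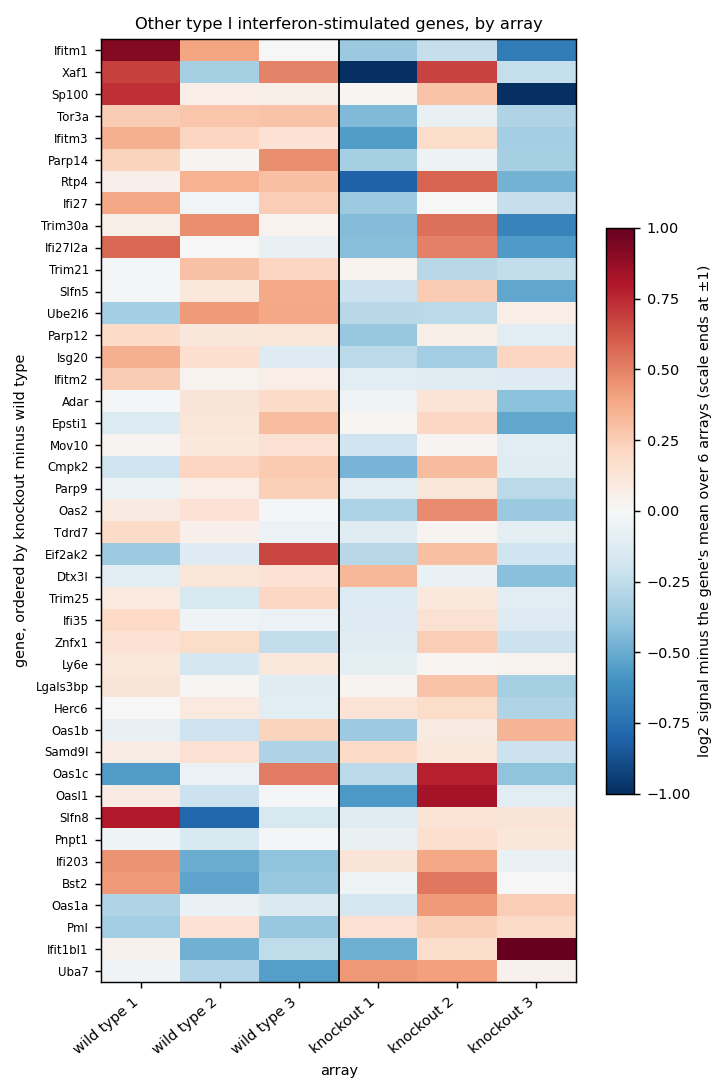
Log2 signal of the 43 tested other type I interferon-stimulated genes on the 6 arrays, each row centred on its mean and ordered by the difference knockout minus wild type, with red above and blue below the mean and the scale ending at ±1. Blue cells gather on knockout replicates 1 and 3 in the upper rows, where knockout replicate 2 is often red, as at Rtp4 and Trim30a.

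The 2 genes of smallest p in that list did not have this pattern. Ifitm1, of the same membrane family as Ifitm3, read 11738, 8152 and 6182 in wild type and 4809, 5285 and 3827 in knockout, with no overlap (log2 −0.87, SE 0.22, adjusted p = 0.164). Tor3a, an interferon-induced ATPase of the torsin family, read 548, 556 and 558 in wild type and 337, 435 and 372 in knockout, also with no overlap (log2 −0.55, adjusted p = 0.182). All knockouts lay below all wild types at 6 of the 43 genes and above them at 2, beside 9.36% and 10.7% of all tested probe sets. The gene of the list higher at an unadjusted p under 0.05 was Uba7, which encodes the enzyme that activates Isg15 for attachment, at 802, 671 and 562 in wild type and 1109, 1092 and 848 in knockout (log2 0.59, adjusted p = 0.201).

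Genes that answer mainly to interferon gamma and genes of class I antigen presentation did not pass either, with 0 of 9 each. In the first list 5 of 9 were lower with a median of −0.07, and the median turned to 0.03, 0.02 and 0.06 without wild type replicate 1, wild type replicate 2 and knockout replicate 3, and to 0.10 with bacterial control RNA as a term. It was −0.20 without knockout replicate 2. This list was led by Irgm1 and Gbp7, GTPases of defence inside the cell (adjusted p = 0.448 and 0.521). In the second 7 of 9 were lower with a median of −0.20, and leaving out knockout replicate 2 or wild type replicate 1 gave −0.32 or −0.10. It was led by Tapbp, which loads peptides, at 2264, 2135 and 2631 in wild type and 1788, 2019 and 1657 in knockout (adjusted p = 0.253). Psmb10, a subunit of the immunoproteasome, followed with an adjusted p of 0.362. Both lists had their highest knockout value on knockout replicate 2, at 0.30 and 0.10, against −0.10 and −0.10 on knockout replicate 1 and −0.24 and −0.26 on knockout replicate 3.

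The genes whose profile over the 6 arrays was most like the member mean, by Pearson's correlation over 23415 named probe sets, were Sike1 (0.995), Smkr-ps (0.987), 4930556M19Rik (0.987), Pnisr (0.986), Stxbp3 (0.985), Sdc1 (0.983), Cela3b (0.982) and Fcor (0.980). None of these 8 was in a list used here, and with 6 arrays that share genotype, sex and scaling such values are a description only. Sike1 encodes a suppressor of the kinase Ikbke and read 124, 117 and 103 in wild type and 78.5, 122 and 83.1 in knockout. Sdc1, a cell surface proteoglycan, read 7080, 6516 and 6373 in wild type and 4692, 6906 and 4924 in knockout. The 43 other type I genes had a median correlation of 0.61 with the member mean, the highest being Ifitm3 at 0.975, against −0.02 over the named probe sets.

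Markers of immune cells differed in how they ran over the arrays. Ptprc, carried by all leukocytes, read 838, 782 and 756 in wild type and 967, 684 and 595 in knockout, high on knockout replicate 1 and low on knockout replicate 3, whereas the members were low on both. All 6 neutrophil markers were tested and had summed signals of 6538 to 20424 in wild type and 11963 to 47264 in knockout, highest on knockout replicate 1. Of 13 macrophage and monocyte markers 11 were tested, of which 6 were higher and 5 lower in knockout with a median log2 difference of 0.15. Their mean centred log2 level was −0.08, 0.03 and −0.19 in wild type and 0.11, 0.23 and −0.09 in knockout, so knockout replicate 2 was the highest array, while knockout replicate 1 was above the wild types. At an unadjusted p under 0.05, 3 were higher (C1qa, C1qb and Ms4a7) and 1, Lyz2, was lower, beside 7.32% and 6.31% of all tested probe sets. Those 3 had all knockouts above all wild types, beside 10.7% of all tested probe sets. Ms4a7, a membrane protein of macrophages, differed by a log2 of 1.24 (adjusted p = 0.0852). The summed signals, 32309 to 44910 in wild type and 22959 to 35258 in knockout, were mostly those of Lyz2, at 14293 to 37259. Of 9 dendritic cell markers 3 were tested, and Siglech, which defines the interferon-producing plasmacytoid cell, lay between 7.53 and 23.8 on every array. Of 8 T and NK cell markers 1 was tested and of 5 B cell markers 2. Of 6 endothelial markers 5 were lower in knockout at an unadjusted p under 0.05, beside 6.31% of all tested probe sets. The same 5 had no overlap between the groups, beside 9.36%. In the limma fit 0 of the 6 passed the adjusted threshold, and Tek was higher (log2 0.24, adjusted p = 0.595). The summed signals of the 6 endothelial markers were 16783 to 19229 in wild type and 12717 to 15077 in knockout. Their mean centred log2 level was −0.05, −0.11 and −0.29 on knockout replicates 1 to 3, so it had no peak on knockout replicate 2. The part of these cells in the member values was not tested.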

How the data were processed

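Lung RNA of 6 samples, 3 per genotype, had been hybridised to Affymetrix mouse whole-genome arrays. The deposited intensity values were made with MAS5 by the authors, per the submitters' processing notes; the version and background settings are not given in the sources used here. The mean after trimming 2% at each end was 500 on every array. Groups came from the sample descriptions. Symbols came from the platform annotation, updated by gene ID through a RefSeq table (GRCm38.p6), with 34945 probe sets carrying 1 symbol, 932 several and 9160 none. After 64 control probe sets were removed, 27022 probe sets above the 40th percentile were tested on log2 values without a pseudocount or further normalization, using limma 3.58.1 in R 4.3.3 (two-sided, eBayes with an intensity trend, Benjamini-Hochberg adjustment over all tested probe sets). Each gene was led by its probe set of highest mean. The fit was tested on simulated data with independent noise for each probe set and array, which holds no array effects shared by genes.

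The members and lists were chosen with earlier results of these data known. Named were all members, Carm1, the 2 genes of smallest p in each pathway list, the 8 genes most like the member mean and promoters holding the motif. Of the genes named beyond these, Ifnar1, Ifnar2, Cmpk2, Ifnb1, Ptprc, Siglech, Sftpc and Pecam1 were picked for their role, and the other cell markers, Rtp4, Ifitm3, Trim30a and Uba7 after their values were seen. The design spoke of 9 genes, of which 7 could be measured. Alternatives covered normalization, filter, pseudocount, variance model, replicate block, bacterial control RNA, sex and each array left out.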

Additional observations from a re-analysis of the deposited data

How the results depend on the processing

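No tested member passed the adjusted threshold under any of the alternatives run. With the filter raised to the 60th percentile, Ifit1 and Ifit3 were not tested. The median log2 difference of the members was negative in each alternative. It ran from −1.19 to −0.51 with an array left out and between −0.84 and −0.71 in the others. Ifit3 alone among the members changed direction, with values from −0.35 to 0.11 when an array was left out. The count of 8 probe sets past the threshold over the whole table was 0 with the replicate block, 0 with no intensity trend, 40 with robust eBayes, 2 with bacterial control RNA as a term, 4 with sex as a term and 3 without both arrays that carry that RNA, an alternative added after seeing the data in which the lone wild type is assumed to vary like the knockouts. It ran from 0 to 13 with an array left out. The replicate numbers did not pair the samples: deviations of same-numbered arrays correlated at −0.14, −0.38 and −0.01, and 0 of 6 arrays matched its own number best. With the block the adjusted p of Usp18 was 0.294, and no member changed its call. The causes were not tested. Signals near or below 59.7, as for Ifit1 on knockout replicate 1 and most interferon ligands, limit what these arrays show.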
